A study of Mus musculus with 18 samples.

Results

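The 44 genes described here build, move or control the machinery of mitosis. They encode cyclins and kinases that start division, kinetochore and spindle proteins, checkpoint proteins, and the factors that trigger anaphase and cytokinesis. They were chosen by name from the deposited gene table, and 44 of 44 names were found among its 14695 genes. The study sequenced poly-A RNA of mouse primary CD8+ T cells (tissue label: spleen and lymph node) in 18 libraries, 3 in each of 6 groups. Every group, the control included, had been targeted with CRISPR/Cas9. Atf4 KO cells were targeted at Atf4, the transcription factor through which the integrated stress response acts. Cebpg KO cells were targeted at Cebpg, whose product pairs with ATF4 on DNA. Rosa26 cells were targeted at a neutral locus and serve as the control. Each of the 3 genotypes was cultured for 24 hours either with halofuginone, an inhibitor of prolyl-tRNA synthetase, or without it (untreated). The mouse strain and age, the guides, the dose, and whether a KO is a pool of edited cells or a clone were not stated in the labels. Nor do the labels tie the 3 libraries of a group to different animals or culture wells. Part or all of the spread among libraries may therefore be technical. Each p-value rests on a spread per gene pooled over the 6 groups, not on that of the compared groups alone.

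In mitosis the duplicated chromosomes attach through their kinetochores, protein plaques built on the centromere, to the microtubules of a bipolar spindle. The spindle assembly checkpoint holds the anaphase-promoting complex inactive until every kinetochore is attached, after which cyclin B and securin are destroyed, separase cuts cohesin, and cytokinesis divides the cell. The mRNAs of most of these proteins are made mainly in G2 phase and mitosis, and serve as markers of dividing cells. In RNA from bulk samples such as these, fewer cells in mitosis and less RNA per cell cannot be told apart.

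Promoters of such genes often carry a cell cycle genes homology region (CHR), with the core TTTGAA, close to the transcription start, and CCAAT boxes upstream of it. The CHR is bound by the MuvB core of the DREAM and MYBL2-FOXM1 complexes, and the CCAAT box by NF-Y. Promoter windows from 250 bases before to 50 bases after a start were taken from RefSeq (GRCm38.p6), and 38 of the 44 genes matched, with 40 windows. Ccna2, Aurkb, Incenp, Spc24, Kif20a and Tpx2 had no match. TTTGAA, searched on both strands, stood in 72.5% of the 40 windows, against 17.9% of all 32851 windows of the table and 12.3% of the 11890 windows of genes measured here. Within 50 bases of the start it stood in 67.5% of the windows, against 4.94% of all windows and 3.22% of those of genes measured here. CCAAT, also searched on both strands, stood in 75%, against 37.4% of all windows and 37.8% of those of genes measured here, and both motifs together in 62.5%, against 6.95% of all windows and 5% of those of genes measured here. The 2 motifs overlapped in 1 window. A match describes the letters only and shows no binding.

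The next 5 windows are printed because their genes carry much of what follows: Plk1 and Cdc20 are among the members with the smallest p of their groups, Ccnb2 and Ccnb1 had the lowest drug responses in Rosa26 cells with and without TTTGAA in the window, and Ube2c has TTTGAA on the opposite strand. Each runs 5′ to 3′ on the gene's own strand, and capitals mark TTTGAA and CCAAT or their reverse complements. The Plk1 window lies at chr7:122159185-122159484, plus strand, the Ccnb2 window at chr9:70421505-70421804, minus strand, and the Cdc20 window at chr4:118437294-118437593, minus strand. The Ube2c window lies at chr2:164769679-164769978, plus strand, and the Ccnb1 window at chr13:100786437-100786736, minus strand.
Plk1: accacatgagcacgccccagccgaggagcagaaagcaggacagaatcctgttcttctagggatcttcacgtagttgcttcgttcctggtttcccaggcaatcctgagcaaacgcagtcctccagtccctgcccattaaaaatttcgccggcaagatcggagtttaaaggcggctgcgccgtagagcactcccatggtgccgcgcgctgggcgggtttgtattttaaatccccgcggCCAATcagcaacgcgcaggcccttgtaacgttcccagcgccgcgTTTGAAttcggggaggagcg
Ccnb2: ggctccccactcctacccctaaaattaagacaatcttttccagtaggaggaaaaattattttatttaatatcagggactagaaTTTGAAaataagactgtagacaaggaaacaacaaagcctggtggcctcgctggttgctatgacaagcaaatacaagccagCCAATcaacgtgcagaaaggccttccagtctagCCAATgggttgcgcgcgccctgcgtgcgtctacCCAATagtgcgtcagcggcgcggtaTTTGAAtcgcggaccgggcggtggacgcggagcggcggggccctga
Cdc20: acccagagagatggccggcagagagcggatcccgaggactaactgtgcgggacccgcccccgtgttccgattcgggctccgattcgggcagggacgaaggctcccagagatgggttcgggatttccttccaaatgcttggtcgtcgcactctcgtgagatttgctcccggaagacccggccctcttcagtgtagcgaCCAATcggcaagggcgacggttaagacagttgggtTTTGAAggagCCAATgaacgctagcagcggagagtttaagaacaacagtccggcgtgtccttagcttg
Ube2c: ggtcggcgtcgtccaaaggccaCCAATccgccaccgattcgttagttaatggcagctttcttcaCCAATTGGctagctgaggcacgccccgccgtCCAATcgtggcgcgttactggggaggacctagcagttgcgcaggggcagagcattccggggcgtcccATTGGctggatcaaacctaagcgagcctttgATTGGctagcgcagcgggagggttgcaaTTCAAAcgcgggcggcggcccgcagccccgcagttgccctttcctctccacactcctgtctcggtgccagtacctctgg
Ccnb1: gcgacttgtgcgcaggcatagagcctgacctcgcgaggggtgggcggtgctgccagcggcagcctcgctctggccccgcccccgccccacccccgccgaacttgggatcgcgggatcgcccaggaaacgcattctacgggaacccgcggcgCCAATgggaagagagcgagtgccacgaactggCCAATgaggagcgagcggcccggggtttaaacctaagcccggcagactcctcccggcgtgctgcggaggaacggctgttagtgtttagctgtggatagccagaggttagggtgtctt
In the Plk1 window TTTGAA begins 30 bases after the start, in Ccnb2 at 4 bases after it and again 167 before, in Cdc20 18 before, and in Ube2c 29 before. Ccnb1 holds 2 CCAAT boxes on its own strand, 32 bases apart, and such pairs, 31 to 33 bases apart, stood in 15% of the 40 windows against 0.794% of all windows and 1.47% of those of genes measured here; this spacing was chosen after the windows were seen.

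Total counts ran from 14190361 to 20281602 per library. Levels below are CPM (counts per 1 M counts in a library, after TMM scaling), and fold changes are log2 values from 1 edgeR fit of all 18 libraries, with the standard error after ±. Fallen or risen means an adjusted p under 0.05 in edgeR's quasi-likelihood test with Benjamini-Hochberg adjustment over all 14695 genes. The fit shares 1 spread per gene over the 6 groups, but the groups differed in spread. Chi-square per degree of freedom between 2 libraries of a group was 5.92 to 38.1 with halofuginone and 1.97 to 6.23 untreated. Fits of only the groups compared are given as alternatives. The 10 markers of CD8 T cells were all measured and summed to 3387 to 4614 CPM per library; B cell markers (4 of 8 measured) summed to at most 19.6 CPM and myeloid markers (2 of 10) to at most 10.5 CPM, with Pax5, Csf1r and Lyz2 absent from the table. Untreated, Atf4 had 274 to 301 CPM in Atf4 KO and 256 to 281 CPM in Rosa26 libraries, and Cebpg 53.9 to 58.5 CPM in Cebpg KO and 52.8 to 55.1 CPM in Rosa26 libraries. With halofuginone, Atf4 had 267 to 378 CPM in Atf4 KO and 351 to 428 CPM in Rosa26 libraries, which overlapped, and Cebpg 93.4 to 105 CPM in Cebpg KO and 167 to 183 CPM in Rosa26 libraries, which did not. Small insertions or deletions need not change a gene's count, so these levels are no firm check of the genotype labels. Malat1, a nuclear transcript, and 829 genes of unconfirmed transcripts (annotation class TEC) set some libraries apart. Malat1 was low, at 1158, 1960 and 672 CPM, in the halofuginone libraries Atf4 KO replicate 3, Cebpg KO replicate 3 and Rosa26 replicate 2, against 2074 to 3580 CPM in the other halofuginone libraries. Each of the 3 was the lowest of its group, but no cutoff defined them. The Cebpg KO library, at 1960 CPM, lay close to the 2074 CPM of Rosa26 halofuginone replicate 1. Without the drug it stood at 2026 to 2606 CPM in both knockouts and at 858 to 1168 CPM in Rosa26.

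The 44 genes together took a share of all counts that fell with the drug in every genotype and was lower in both knockouts than in the control. With halofuginone the share was 0.233%, 0.242% and 0.226% in Atf4 KO, 0.297%, 0.270% and 0.275% in Cebpg KO, and 0.366%, 0.351% and 0.380% in Rosa26 libraries. Untreated, it was 0.733%, 0.754% and 0.752% in Atf4 KO, 0.867%, 0.898% and 0.894% in Cebpg KO, and 1.05%, 1.03% and 1.04% in Rosa26 libraries. No 2 of the 6 groups overlapped. Per length, the most abundant members in untreated Rosa26 cells were Top2a at 569.6 ± 12.9, Ccnb2 at 511 ± 9.08 and Cdc20 at 462 ± 11.7 TPM (transcripts per 1 M, SD, n = 3), and the least abundant were Pttg1 at 19.7 ± 0.83 and Anln at 26.7 ± 2.38 TPM.

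**Figure D1:**
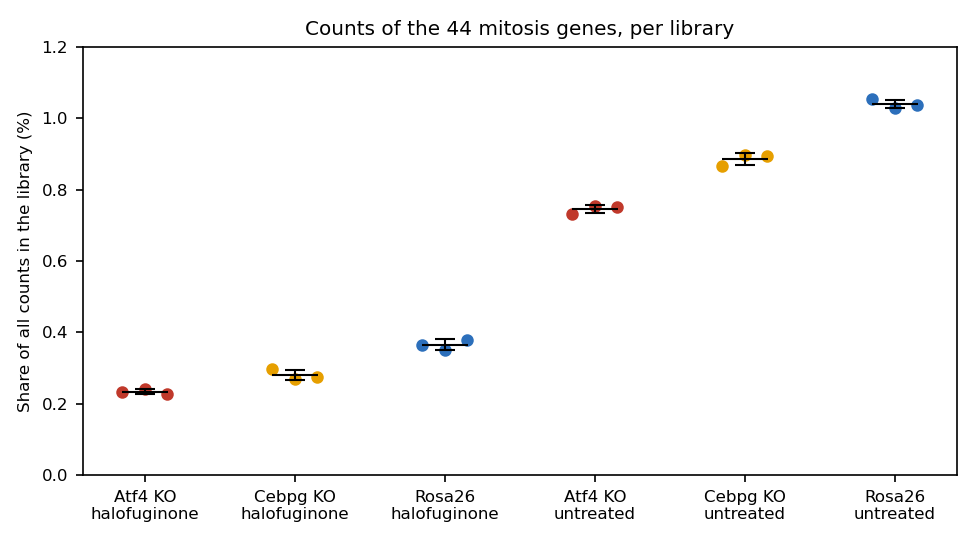
Share of all counts taken by the 44 genes, in percent, in each of the 18 libraries (points) with the group mean (long line) and SD (bars). The halofuginone libraries lie between 0.226% and 0.380% and the untreated libraries between 0.733% and 1.05%, and within each condition Atf4 KO is lowest and Rosa26 highest.

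All 44 genes fell with halofuginone in all 3 genotypes. In Atf4 KO cells 44 of 44 fell, where 26.5% of all genes tested fell, and 41 of them fell by at least 2-fold, against 6.31% of all genes. In Cebpg KO cells 44 fell, against 28% of all genes, and 43 by at least 2-fold, against 6.38%. In Rosa26 cells 44 fell, against 24.1%, and 42 by at least 2-fold, against 3.89%. The median log2 fold change of the 44 was -1.85 in Atf4 KO, -1.84 in Cebpg KO and -1.61 in Rosa26 cells, beside medians over all genes of -0.04 in Atf4 KO, -0.03 in Cebpg KO and 0.02 in Rosa26. In each genotype every drug-treated library lay below every untreated one for all 44 genes, which was so for 28.9% of all genes in Atf4 KO, 32.7% in Cebpg KO and 27.9% in Rosa26 cells. The summed myeloid markers stood at 5.91 to 10.5 CPM with halofuginone and 2.71 to 5.20 CPM untreated. Nkg7, the 1 measured of 4 genes listed for NK cells, stood at 237 to 318 CPM with the drug and 189 to 243 CPM untreated. Ncr1, Klrb1c and Tyrobp of that list were absent from the table, and Nkg7 alone does not show that NK cells were present. The CD8 T cell markers summed to 3387 to 4240.1 CPM with the drug and 4388 to 4566 CPM untreated in Atf4 KO, 3550.1 to 3837 CPM with and 4416 to 4463 CPM without it in Cebpg KO, and 3892 to 4614 CPM with and 4413 to 4503 CPM without it in Rosa26. They were thus lower with the drug, with no overlap, in both knockouts, and overlapped in Rosa26. The part of these markers in the result was not tested. The count of 44 stood under every alternative processing tried and without the 3 libraries low in Malat1.

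**Figure D2:**
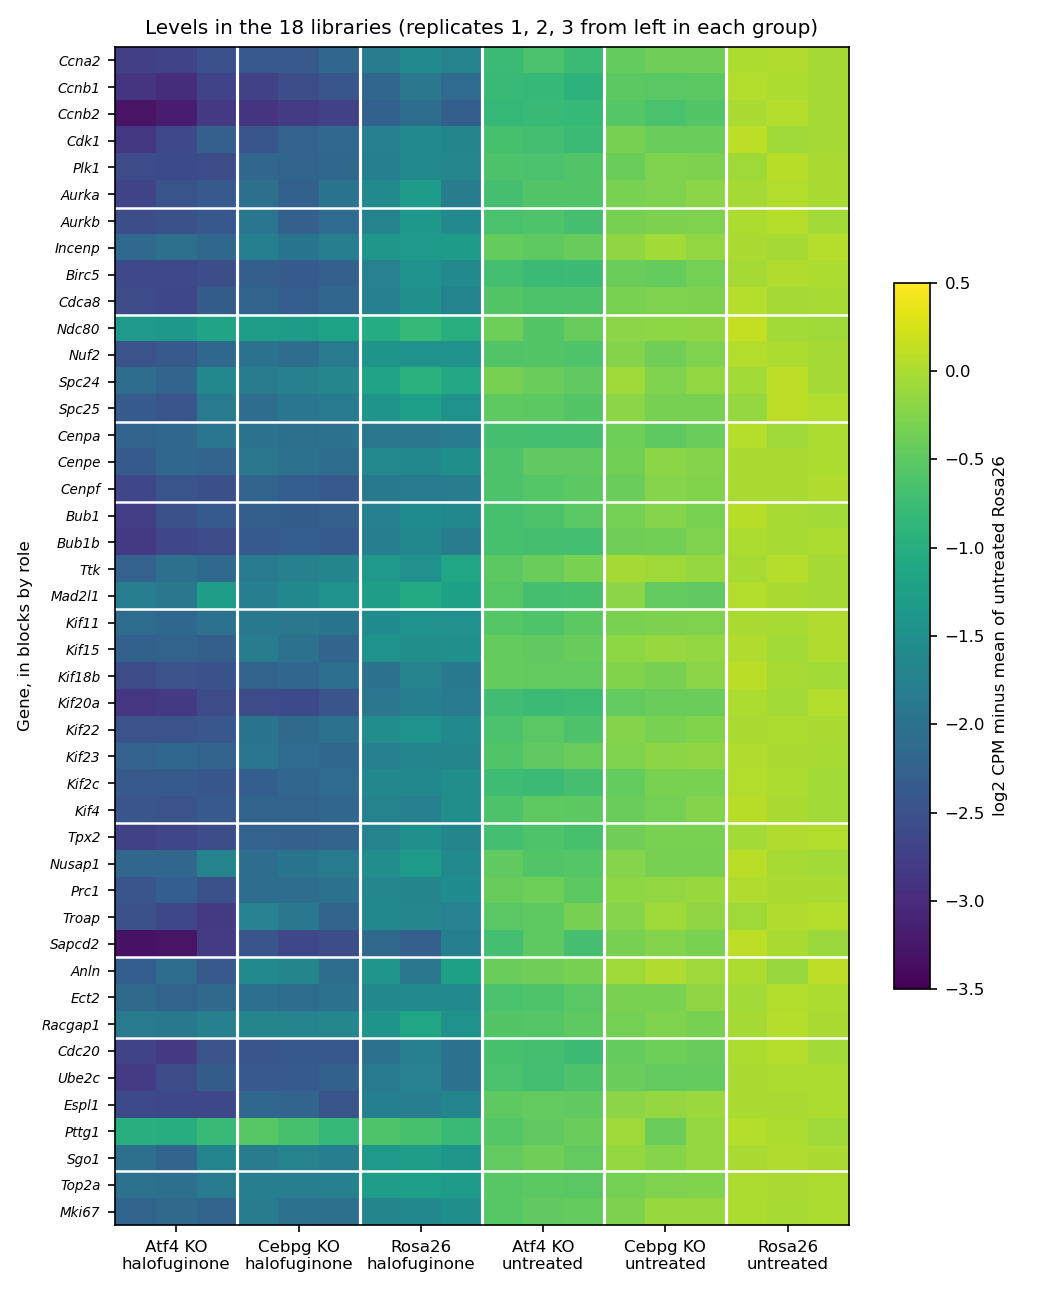
Level of each of the 44 genes (rows, in blocks by role) in each of the 18 libraries (columns), as log2 CPM minus the mean of the 3 untreated Rosa26 libraries. The halofuginone columns lie lowest, most of all in Atf4 KO, and Pttg1 and Ndc80 stand nearest to 0 among their rows.

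The cyclins and kinases that start mitosis fell with a median over 6 genes of -1.94 in Atf4 KO, -1.90 in Cebpg KO and -1.69 in Rosa26 cells. Plk1, the polo-like kinase that acts at centrosomes, kinetochores and the midzone, stood at 30.95, 30.2 and 30.96 CPM with halofuginone, against 120.0, 118 and 123 CPM untreated, in Atf4 KO cells. The Cebpg KO libraries held 40.8, 39.8 and 41.4 CPM with and 140.0, 153 and 151 CPM without the drug, and the Rosa26 libraries 54.1, 61.2 and 58.8 CPM with and 175, 195 and 184 CPM without it. The fold changes were -1.97 ± 0.061 (adjusted p = 8.10e-15) in Atf4 KO, -1.86 ± 0.060 (adjusted p = 9.22e-15) in Cebpg KO and -1.67 ± 0.059 (adjusted p = 4.25e-14) in Rosa26. Ccnb2, a B-type cyclin and partner of CDK1, stood at 25.5, 27.2 and 34.9 CPM with halofuginone, against 141, 143 and 141 CPM untreated, in Atf4 KO cells. It had 33.9, 35.7 and 37.99 CPM in drug-treated and 169.9, 159 and 168 CPM in untreated Cebpg KO cells, and 52.3, 59.8 and 50.9 CPM in drug-treated and 249, 259 and 243 CPM in untreated Rosa26 cells. Its fold changes were -2.28 ± 0.089 (adjusted p = 1.08e-13) in Atf4 KO, -2.21 ± 0.088 (adjusted p = 9.46e-14) in Cebpg KO and -2.20 ± 0.086 (adjusted p = 1.14e-13) in Rosa26, the Rosa26 value being the lowest of the 44. Ccnb1, the main mitotic cyclin, moved by -2.01 in Atf4 KO, -2.06 in Cebpg KO and -2.06 in Rosa26, and Ccna2, cyclin A2, by -1.91 ± 0.076 (adjusted p = 1.26e-13) in Atf4 KO, -1.91 ± 0.075 (adjusted p = 7.80e-14) in Cebpg KO and -1.70 ± 0.074 (adjusted p = 4.46e-13) in Rosa26. Cdk1, the kinase itself, gave -1.85 in Atf4 KO, -1.89 in Cebpg KO and -1.67 in Rosa26, and Aurka, the kinase of the spindle poles, -1.88 in Atf4 KO, -1.82 in Cebpg KO and -1.56 in Rosa26.

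The chromosomal passenger complex, which corrects wrong attachments and later marks the midzone, fell in all 4 subunits. Birc5, survivin, stood at 38.4, 38.4 and 39.9 CPM with halofuginone, against 145, 137 and 139 CPM untreated, in Atf4 KO cells. Cebpg KO cells held 48.1, 46.3 and 48.7 CPM with and 177, 173 and 186 CPM without halofuginone, and Rosa26 cells 70.8, 85.4 and 77.4 CPM with and 229.7, 241 and 236 CPM without it. The fold changes were -1.85 ± 0.063 (adjusted p = 1.90e-14) in Atf4 KO, -1.91 ± 0.063 (adjusted p = 9.22e-15) in Cebpg KO and -1.60 ± 0.061 (adjusted p = 9.00e-14) in Rosa26. Incenp, the scaffold of the complex, gave -1.65 ± 0.059 (adjusted p = 3.40e-14) in Atf4 KO, -1.71 ± 0.059 (adjusted p = 1.59e-14) in Cebpg KO and -1.34 ± 0.057 (adjusted p = 3.83e-13) in Rosa26. Aurkb, its kinase, and Cdca8, borealin, lay between -1.94 (Cdca8, Cebpg KO) and -1.55 (Aurkb, Rosa26).

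Among kinetochore proteins, the 4 subunits of the Ndc80 complex, which grips the microtubule, fell with medians of -1.61 in Atf4 KO, -1.63 in Cebpg KO and -1.23 in Rosa26 cells. Nuf2, one of its coiled-coil subunits, stood at 17.9, 19.2 and 22.4 CPM with halofuginone, against 66.7, 67.4 and 66.4 CPM untreated, in Atf4 KO cells. In Cebpg KO cells it had 25.6, 23.7 and 27.9 CPM with and 85.4, 78.01 and 83.05 CPM without the drug, and in Rosa26 cells 37.05, 37.01 and 36.7 CPM with and 103, 101 and 97.9 CPM without it. This gave -1.75 ± 0.076 (adjusted p = 3.56e-13) in Atf4 KO, -1.68 ± 0.075 (adjusted p = 3.99e-13) in Cebpg KO and -1.44 ± 0.072 (adjusted p = 3.00e-12) in Rosa26. Spc25 gave -1.68 ± 0.12 (adjusted p = 3.41e-10) in Atf4 KO, -1.68 ± 0.11 (adjusted p = 2.30e-10) in Cebpg KO and -1.39 ± 0.11 (adjusted p = 2.78e-09) in Rosa26. Ndc80 itself had the second weakest response of the 44, at -0.82 in Atf4 KO, -1.07 in Cebpg KO and -0.95 in Rosa26, with 39.4, 45.4 and 40.4 CPM in drug-treated and 87.7, 77.5 and 76.04 CPM in untreated Rosa26 libraries. Spc24 gave -1.54 in Atf4 KO, -1.58 in Cebpg KO and -1.07 in Rosa26.

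The centromere and its outer corona are represented by 3 genes. Cenpf, a large protein of the fibrous corona, stood at 43.5, 49.6 and 47.5 CPM with halofuginone, against 178, 187 and 192 CPM untreated, in Atf4 KO cells. The Cebpg KO libraries held 58.2, 55.3 and 52.5 CPM with and 206, 234 and 229 CPM without the drug, and the Rosa26 libraries 74.04, 76.5 and 77.95 CPM with and 271, 272 and 278 CPM without it. The fold changes were -1.99 ± 0.064 (adjusted p = 1.00e-14) in Atf4 KO, -2.01 ± 0.064 (adjusted p = 8.73e-15) in Cebpg KO and -1.85 ± 0.062 (adjusted p = 4.25e-14) in Rosa26. Cenpe, a kinesin that moves chromosomes to the spindle equator, gave -1.71 ± 0.066 (adjusted p = 8.71e-14) in Atf4 KO, -1.73 ± 0.065 (adjusted p = 4.85e-14) in Cebpg KO and -1.59 ± 0.064 (adjusted p = 1.80e-13) in Rosa26. Cenpa, the histone H3 variant that marks the centromere, gave -1.42 ± 0.064 (adjusted p = 5.63e-13) in Atf4 KO, -1.57 ± 0.064 (adjusted p = 1.24e-13) in Cebpg KO and -1.90 ± 0.064 (adjusted p = 4.25e-14) in Rosa26, with the smallest fall in Atf4 KO.

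The spindle assembly checkpoint genes fell in all 4 cases. Bub1b, BUBR1, which binds and holds CDC20, stood at 37.5, 42.1 and 44.4 CPM with halofuginone, against 167, 165 and 163 CPM untreated, in Atf4 KO cells. It had 51.9, 53.5 and 51.6 CPM in drug-treated and 205, 207 and 218 CPM in untreated Cebpg KO cells, and 76.5, 85.1 and 75.8 CPM in drug-treated and 268, 261 and 266 CPM in untreated Rosa26 cells. Its fold changes were -1.997 ± 0.063 (adjusted p = 8.10e-15) in Atf4 KO, -2.005 ± 0.062 (adjusted p = 8.49e-15) in Cebpg KO and -1.74 ± 0.061 (adjusted p = 4.25e-14) in Rosa26. Bub1, the kinase that recruits it, gave -1.94 ± 0.083 (adjusted p = 3.03e-13) in Atf4 KO, -2.001 ± 0.082 (adjusted p = 1.34e-13) in Cebpg KO and -1.65 ± 0.079 (adjusted p = 1.72e-12) in Rosa26. Ttk, the checkpoint kinase MPS1, gave -1.74 in Atf4 KO, -1.69 in Cebpg KO and -1.32 in Rosa26. Mad2l1, MAD2, was the third weakest in both knockouts, at -0.997 in Atf4 KO and -1.25 in Cebpg KO cells, and gave -1.18 in Rosa26 cells.

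All 8 kinesins fell, with medians of -1.84 in Atf4 KO, -1.85 in Cebpg KO and -1.63 in Rosa26 cells. Kif11, Eg5, which pushes the spindle poles apart, stood at 101, 97.4 and 109 CPM with halofuginone, against 294, 284 and 304 CPM untreated, in Atf4 KO cells. Cebpg KO cells held 116, 114 and 112 CPM with and 348, 354 and 358 CPM without halofuginone, and Rosa26 cells 146, 156 and 154 CPM with and 431, 426 and 438 CPM without it. This gave -1.52 ± 0.052 (adjusted p = 1.93e-14) in Atf4 KO, -1.63 ± 0.052 (adjusted p = 9.22e-15) in Cebpg KO and -1.50 ± 0.052 (adjusted p = 4.25e-14) in Rosa26. Kif20a, which carries the passenger complex to the midzone, gave -2.01 ± 0.070 (adjusted p = 2.26e-14) in Atf4 KO, -2.13 ± 0.069 (adjusted p = 9.22e-15) in Cebpg KO and -1.85 ± 0.067 (adjusted p = 5.65e-14) in Rosa26. Kif22, a chromokinesin, had the smallest p of the kinesins in Atf4 KO cells, at -1.87 ± 0.059 (adjusted p = 8.10e-15). The other 5 are Kif15, a second pole-separating motor, Kif18b and Kif2c, which shorten microtubules, Kif23, of centralspindlin, and Kif4, another chromokinesin. They ranged from -2.07 (Kif18b, Atf4 KO) to -1.49 (Kif15, Rosa26).

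Spindle and microtubule-binding factors fell as well, 5 of 5. Tpx2, which activates Aurora A and helps nucleate spindle microtubules, stood at 53.4, 56.3 and 59.8 CPM with halofuginone, against 217, 233 and 223 CPM untreated, in Atf4 KO cells. In Cebpg KO cells it had 74.2, 72.8 and 77.4 CPM with and 273, 287 and 285 CPM without the drug, and in Rosa26 cells 107, 125 and 112 CPM with and 341, 357 and 361 CPM without it. The fold changes were -1.99 ± 0.063 (adjusted p = 8.10e-15) in Atf4 KO, -1.91 ± 0.062 (adjusted p = 9.22e-15) in Cebpg KO and -1.62 ± 0.061 (adjusted p = 8.24e-14) in Rosa26. Prc1, which bundles the antiparallel microtubules of the midzone, gave -1.98 ± 0.060 (adjusted p = 7.73e-15) in Atf4 KO, -1.90 ± 0.059 (adjusted p = 8.49e-15) in Cebpg KO and -1.63 ± 0.058 (adjusted p = 4.54e-14) in Rosa26. Sapcd2, a regulator of spindle orientation, had the lowest value of the 44 in both knockouts, -2.51 ± 0.13 (adjusted p = 5.74e-12) in Atf4 KO and -2.26 ± 0.13 (adjusted p = 1.03e-11) in Cebpg KO cells. Troap, a spindle-associated protein in human cells, gave -2.22 in Atf4 KO, -1.78 in Cebpg KO and -1.68 in Rosa26, and Nusap1, which bundles spindle microtubules, -1.47 in Atf4 KO, -1.65 in Cebpg KO and -1.49 in Rosa26.

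For cytokinesis, Ect2, the exchange factor that activates RhoA at the cell equator, stood at 26.7, 24.8 and 26.8 CPM with halofuginone, against 74.3, 76.6 and 81.5 CPM untreated, in Atf4 KO cells. The Cebpg KO libraries held 28.3, 27.5 and 28.9 CPM with and 94.3, 94.6 and 104 CPM without the drug, and the Rosa26 libraries 37.5, 38.5 and 38.5 CPM with and 112, 120.1 and 118 CPM without it. Its fold changes were -1.57 ± 0.063 (adjusted p = 1.32e-13) in Atf4 KO, -1.79 ± 0.063 (adjusted p = 2.01e-14) in Cebpg KO and -1.61 ± 0.061 (adjusted p = 8.24e-14) in Rosa26. Racgap1, the partner of Kif23 in centralspindlin, gave -1.29 ± 0.070 (adjusted p = 7.66e-12) in Atf4 KO, -1.37 ± 0.069 (adjusted p = 2.78e-12) in Cebpg KO and -1.34 ± 0.069 (adjusted p = 4.71e-12) in Rosa26. Anln, anillin of the contractile ring, gave -1.89 in Atf4 KO, -1.73 in Cebpg KO and -1.50 in Rosa26, and its drug-treated Rosa26 libraries held 28.7, 20.4 and 32.9 CPM, the lowest being replicate 2, which was low in Malat1.

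The genes of anaphase onset held both strong and weak responses. Cdc20, which activates the anaphase-promoting complex, stood at 42.99, 38.7 and 49.5 CPM with halofuginone, against 173, 173 and 163 CPM untreated, in Atf4 KO cells. It had 50.7, 52.5 and 52.4 CPM in drug-treated and 203, 211 and 205 CPM in untreated Cebpg KO cells, and 69.2, 81.5 and 69.9 CPM in drug-treated and 277, 287 and 265 CPM in untreated Rosa26 cells. It fell, at -1.95 ± 0.077 (adjusted p = 1.23e-13) in Atf4 KO, -1.99 ± 0.077 (adjusted p = 6.48e-14) in Cebpg KO and -1.91 ± 0.075 (adjusted p = 1.28e-13) in Rosa26. Espl1, separase, gave -2.16 ± 0.067 (adjusted p = 8.10e-15) in Atf4 KO, -2.12 ± 0.066 (adjusted p = 8.49e-15) in Cebpg KO and -1.75 ± 0.064 (adjusted p = 6.63e-14) in Rosa26. Ube2c, the ubiquitin-conjugating enzyme of the complex, gave -1.89 in Atf4 KO, -1.89 in Cebpg KO and -1.84 in Rosa26, and Sgo1, which protects centromeric cohesin, -1.53 in Atf4 KO, -1.62 in Cebpg KO and -1.33 in Rosa26. Pttg1, securin, the inhibitor that holds separase, had the weakest response of the 44 in each genotype. It stood at 6.26, 6.24 and 7.22 CPM with halofuginone, against 8.50, 9.003 and 9.47 CPM untreated, in Atf4 KO cells, and at 8.23, 7.95 and 7.16 CPM with it, against 13.2, 12.7 and 12.01 CPM untreated, in Rosa26 cells. Those groups did not overlap, and the fold changes were -0.45 ± 0.12 (adjusted p = 0.0046) in Atf4 KO, -0.48 ± 0.12 (adjusted p = 0.00214) in Cebpg KO and -0.69 ± 0.12 (adjusted p = 6.24e-05) in Rosa26. It was also the member with the fewest counts.

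Of the 2 genes of chromosome structure, Top2a, the topoisomerase that untangles sister chromatids, stood at 412, 404 and 455 CPM with halofuginone, against 1127, 1155 and 1139 CPM untreated, in Atf4 KO cells. Cebpg KO cells held 476, 476 and 488 CPM with and 1301, 1352 and 1370.5 CPM without halofuginone, and Rosa26 cells 681, 692 and 662 CPM with and 1655, 1626 and 1643 CPM without it. Its fold changes were -1.43 ± 0.061 (adjusted p = 2.61e-13) in Atf4 KO, -1.48 ± 0.061 (adjusted p = 1.34e-13) in Cebpg KO and -1.27 ± 0.060 (adjusted p = 1.49e-12) in Rosa26. Mki67, which coats mitotic chromosomes and serves as a proliferation marker, gave -1.70 ± 0.072 (adjusted p = 2.58e-13) in Atf4 KO, -1.77 ± 0.072 (adjusted p = 1.24e-13) in Cebpg KO and -1.60 ± 0.072 (adjusted p = 7.00e-13) in Rosa26. The drug responses ranked the genes alike between genotypes: over the 44 genes Pearson's r was 0.94 between Cebpg KO and Atf4 KO, 0.87 between Cebpg KO and Rosa26 and 0.83 between Atf4 KO and Rosa26 (Spearman's rho 0.89, 0.83 and 0.78 for the same pairs). These pairs share no library, but the 44 values of a genotype all come from the same 6 libraries, so the r values are descriptions. Genes with TTTGAA in their promoter window had a median of -1.63 (27 genes) and those without it -1.59 (11 genes) in Rosa26 cells, and in the knockouts the medians were -1.87 against -1.75 (Atf4 KO) and -1.85 against -1.73 (Cebpg KO). In untreated Atf4 KO over Rosa26 cells the order turned, with -0.56 against -0.59.

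**Figure D3:**
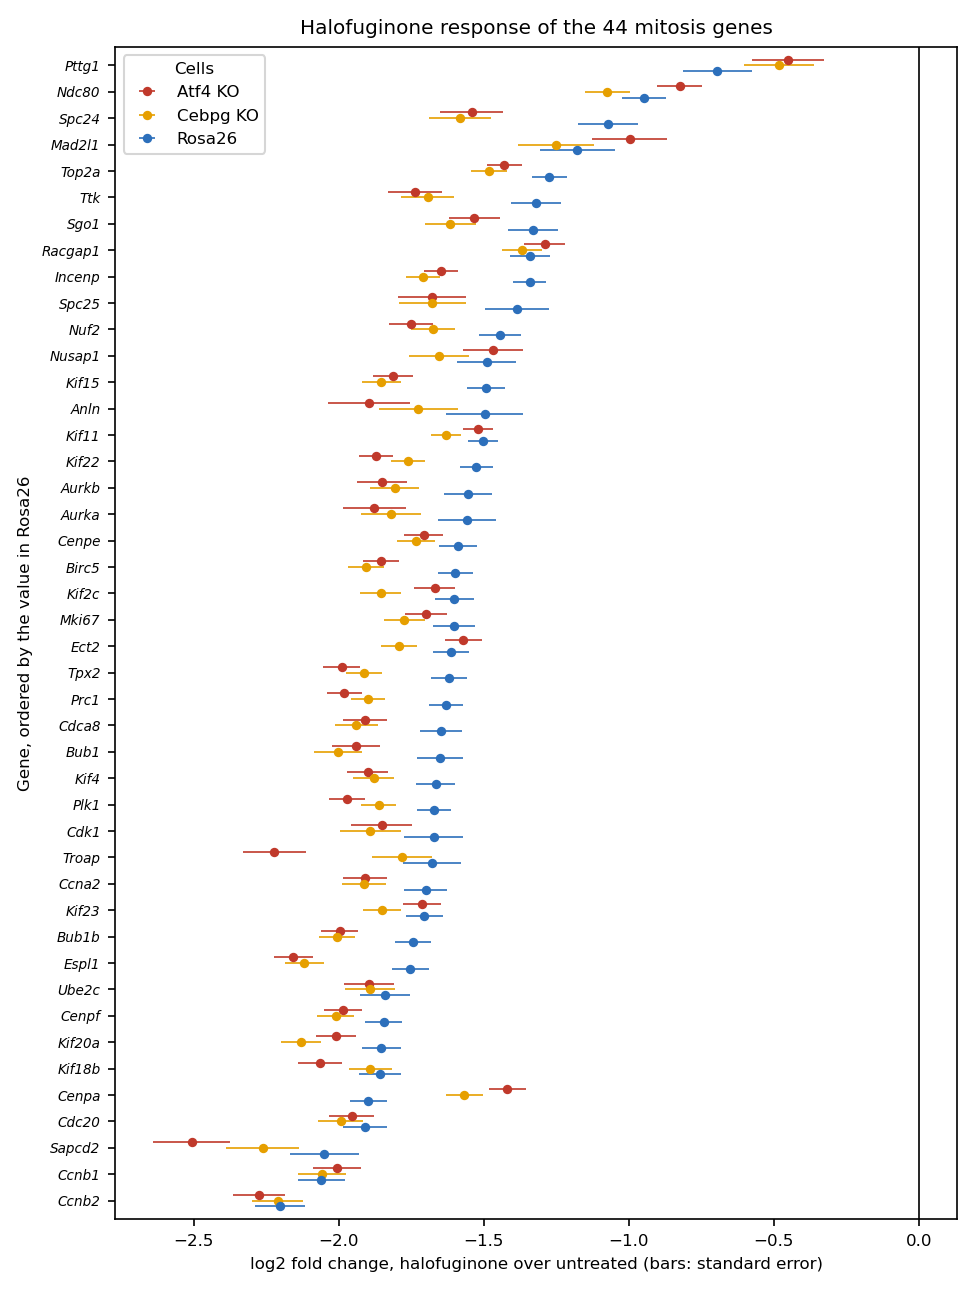
Log2 fold change of each of the 44 genes with halofuginone over untreated (points) and its standard error (bars) in Atf4 KO, Cebpg KO and Rosa26 cells, genes ordered by the Rosa26 value. All points lie left of 0, most knockout points lie left of the Rosa26 point, and Cenpa, at -1.42 in Atf4 KO against -1.90 in Rosa26, is placed the other way round.

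The Atf4 knockout had lower levels of these genes with no drug present. In untreated cells all 44 fell in Atf4 KO relative to Rosa26, where 14.3% of all genes fell, with a median of -0.57 beside 0.02 over all genes, and 0 of 44 by 2-fold or more, against 0.218% of all genes. The range was narrow, from -0.84 ± 0.077 (adjusted p = 3.75e-07) for Ccnb1 to -0.37 ± 0.13 (adjusted p = 0.0404) for Anln. In none of the 44 did the 3 Atf4 KO libraries overlap the 3 Rosa26 libraries, a separation seen in 25.6% of all genes. Malat1 stood at 2026 to 2606 CPM in untreated Atf4 KO and at 858 to 1168 CPM in untreated Rosa26 libraries, and the TEC genes took 0.194% to 0.250% of counts in Atf4 KO and 0.09997% to 0.133% in Rosa26. The 4 measured of 6 CD4 T cell markers (Foxp3, Zbtb7b, Il2ra and Ikzf2) summed to 594 to 662 CPM in Atf4 KO and 800.03 to 847 CPM in Rosa26 libraries. Cd4 and Cd40lg were absent from the table, and the sum does not show that CD4 T cells were present. The sums of CD4 T cell markers below are of the same 4 genes. Nkg7 stood at 228 to 243 CPM in Atf4 KO and 189 to 207 CPM in Rosa26 libraries. The part of these in the differences was not tested.

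Each role took part. Among the cyclins and kinases, Ccnb1 stood at 148, 145 and 137 CPM in Atf4 KO, against 263, 258 and 249 CPM in Rosa26. Plk1, with the smallest p of its group, gave -0.62 ± 0.057 (adjusted p = 3.66e-07), from the library values given with its drug response. Of the passenger complex, Birc5 gave -0.74 ± 0.059 (adjusted p = 9.18e-08) and Cdca8 -0.60 ± 0.070 (adjusted p = 6.11e-06), and of the Ndc80 complex, Nuf2 gave -0.59 ± 0.070 (adjusted p = 6.66e-06) and Ndc80 -0.47 ± 0.075 (adjusted p = 0.000146). Among centromere proteins Cenpa stood at 175, 173 and 175 CPM in Atf4 KO, against 292, 268 and 281 CPM in Rosa26. Its fold change was -0.69 ± 0.061 (adjusted p = 2.94e-07), and that of Cenpf -0.56 ± 0.060 (adjusted p = 2.30e-06). The checkpoint genes Bub1b and Bub1 gave -0.68 ± 0.058 (adjusted p = 2.19e-07) and -0.61 ± 0.076 (adjusted p = 1.15e-05). Kif20a, with the smallest p of the kinesins, stood at 131, 128 and 129.6 CPM in Atf4 KO, against 219.8, 209.6 and 224 CPM in Rosa26. This gave -0.75 ± 0.064 (adjusted p = 2.25e-07), and Kif2c gave -0.73 ± 0.065 (adjusted p = 2.94e-07).

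Among spindle factors Tpx2 gave -0.65 ± 0.059 (adjusted p = 3.39e-07) and Prc1 -0.44 ± 0.056 (adjusted p = 1.23e-05), and for cytokinesis Ect2 gave -0.59 ± 0.059 (adjusted p = 9.47e-07) and Racgap1 -0.54 ± 0.068 (adjusted p = 1.06e-05). Anaphase genes moved in the same direction, with Cdc20 at -0.70 ± 0.072 (adjusted p = 1.44e-06) and Ube2c at -0.66 ± 0.082 (adjusted p = 1.02e-05). Top2a and Mki67 gave -0.53 ± 0.060 (adjusted p = 4.13e-06) and -0.48 ± 0.070 (adjusted p = 5.49e-05). Mki67 stood at 944, 987 and 1006 CPM in Atf4 KO, against 1379, 1346 and 1373 CPM in Rosa26. The others lay within the range given for Ccnb1 and Anln.

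Cebpg KO cells stood between the other genotypes. Untreated, 27 of 44 fell relative to Rosa26, where 2.29% of all genes fell, with a median of -0.29 beside 0.01 over all genes. In 42 of 44 the 3 Cebpg KO libraries lay below the 3 Rosa26 libraries, as did 20.6% of all genes. The lowest value was -0.59 ± 0.081 (adjusted p = 0.000534) for Ccnb2 and the highest -0.05 ± 0.13 (adjusted p = 0.84) for Anln. In Ccnb2 the Cebpg KO libraries held 169.9, 159 and 168 CPM and the Rosa26 libraries 249, 259 and 243 CPM. The centromere genes fell in 3 of 3, with Cenpa at -0.43 ± 0.061 (adjusted p = 0.000715) and Cenpf at -0.29 ± 0.060 (adjusted p = 0.00877), and the kinesins in 7 of 8, with Kif20a at -0.42 ± 0.064 (adjusted p = 0.00136) and Kif11 at -0.29 ± 0.050 (adjusted p = 0.0033). Cyclins and kinases fell in 5 of 6, with Ccnb1 at -0.51 ± 0.077 (adjusted p = 0.00128), and the passenger complex in 3 of 4, with Birc5 at -0.40 ± 0.059 (adjusted p = 0.00117) and Cdca8 at -0.30 ± 0.070 (adjusted p = 0.0193).

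In the other roles fewer passed the threshold. Of the checkpoint genes, Bub1b (-0.34 ± 0.058, adjusted p = 0.0033) and Bub1 (-0.29 ± 0.075, adjusted p = 0.0311) fell. Cytokinesis had Racgap1 (-0.31 ± 0.067, adjusted p = 0.0124) and Ect2 (-0.26 ± 0.058, adjusted p = 0.0163), and anaphase control Ube2c (-0.44 ± 0.081, adjusted p = 0.00484) and Cdc20 (-0.42 ± 0.072, adjusted p = 0.00302). Nuf2 (-0.29 ± 0.069, adjusted p = 0.0201) alone fell in the Ndc80 complex, where Spc25 gave -0.28 ± 0.10 (adjusted p = 0.117). Tpx2 (-0.33 ± 0.059, adjusted p = 0.00439) alone fell among the spindle factors, where Nusap1 gave -0.29 ± 0.098 (adjusted p = 0.0845). Top2a fell (-0.29 ± 0.059, adjusted p = 0.00902), and Mki67 gave -0.17 ± 0.070 (adjusted p = 0.143). The count of 27 was 17 without Cebpg KO replicate 1 or Rosa26 replicate 2, and 17 to 19 when any 1 of the 6 libraries was left out. It was 40 without the 3 libraries low in Malat1, which are all drug-treated and so outside this comparison. Malat1 stood at 2048 to 2364 CPM and the CD4 T cell markers summed to 716 to 789.6 CPM in these Cebpg KO libraries, against the Rosa26 values above, and their part was not tested. The 2 knockout comparisons share the Rosa26 libraries.

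Set directly against each other without the drug, Cebpg KO cells held more of these mRNAs than Atf4 KO cells. Of the 44, 29 rose, where 2.01% of all genes rose, with a median of 0.30 beside 0.00439 over all genes. All 44 had the 3 Cebpg KO libraries above the 3 Atf4 KO libraries, as did 15.9% of all genes. The fold changes ran from 0.19 ± 0.068 (adjusted p = 0.141) for Kif18b to 0.38 ± 0.065 (adjusted p = 0.00307) for Kif2c. Incenp held 299, 325 and 304 CPM in Cebpg KO, against 246, 239 and 249 CPM in Atf4 KO, a change of 0.34 ± 0.056 (adjusted p = 0.00259). Bub1b gave 0.35 ± 0.059 (adjusted p = 0.00283), Kif22 0.32 ± 0.055 (adjusted p = 0.00294), Birc5 0.35 ± 0.059 (adjusted p = 0.00307) and Ect2 0.34 ± 0.059 (adjusted p = 0.00366). Tpx2 gave 0.33 ± 0.059 (adjusted p = 0.00449), Espl1 0.33 ± 0.062 (adjusted p = 0.00586), Plk1 0.30 ± 0.057 (adjusted p = 0.00655) and Mki67 0.31 ± 0.070 (adjusted p = 0.0181). Nuf2 gave 0.30 ± 0.070 (adjusted p = 0.0224), Ndc80 0.29 ± 0.076 (adjusted p = 0.0425), Cenpf 0.27 ± 0.060 (adjusted p = 0.0171) and Cenpe 0.26 ± 0.062 (adjusted p = 0.0259). Cdc20 gave 0.28 ± 0.072 (adjusted p = 0.0355), Ccna2 0.33 ± 0.072 (adjusted p = 0.0134), Prc1 0.29 ± 0.056 (adjusted p = 0.00586), Bub1 0.31 ± 0.076 (adjusted p = 0.0273) and Top2a 0.23 ± 0.059 (adjusted p = 0.0341). Racgap1, at 0.23 ± 0.068 (adjusted p = 0.0652), did not pass. The count of 29 was 12 to 18 when any 1 of the 6 libraries was left out. It was 43 without the 3 libraries low in Malat1, which are all drug-treated and so outside this comparison. Malat1 overlapped between these groups, at 2048 to 2364 CPM in Cebpg KO and 2026 to 2606 CPM in Atf4 KO libraries. The CD4 T cell markers did not overlap, summing to 716 to 789.6 CPM in Cebpg KO and 594 to 662 CPM in Atf4 KO, nor did Nkg7, at 197 to 209 CPM in Cebpg KO and 228 to 243 CPM in Atf4 KO, and their part was not tested. Across the 3 genotypes, every untreated library followed the order Atf4 KO, Cebpg KO, Rosa26 from low to high in 42 of 44 genes, and in 7.55% of all genes. The group means followed it in 44 of 44 members and 28.2% of all genes.

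**Figure D4:**
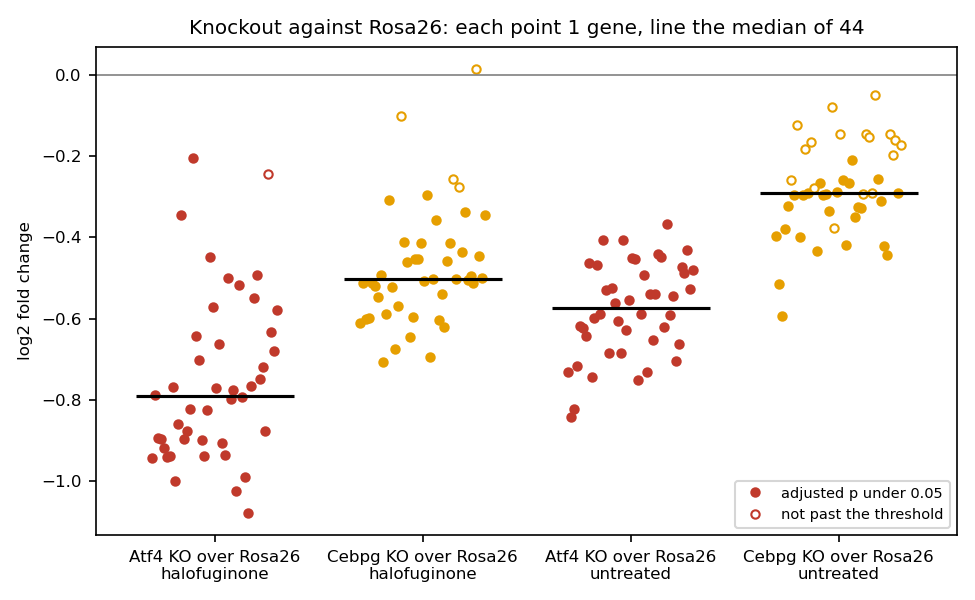
Log2 fold change of each of the 44 genes (points) in Atf4 KO and Cebpg KO over Rosa26, with halofuginone and untreated, with the median (line); filled points passed the threshold. The medians are -0.79 in Atf4 KO and -0.50 in Cebpg KO with halofuginone, and -0.57 in Atf4 KO and -0.29 in Cebpg KO untreated.

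With halofuginone present both knockouts again stood below the control. In Atf4 KO cells 43 of 44 fell relative to Rosa26, where 16.3% of all genes fell, with a median of -0.79 beside 0.00108 over all genes. Sapcd2 and Tpx2 fell by at least 2-fold, which 1.36% of all genes did. Tpx2 stood at 53.4, 56.3 and 59.8 CPM in Atf4 KO, against 107, 125 and 112 CPM in Rosa26. The fold change was -1.02 ± 0.063 (adjusted p = 7.31e-10). Sapcd2 held 5.34, 5.43 and 7.76 CPM in Atf4 KO and 12.4, 11.1 and 15.8 CPM in Rosa26 libraries, and gave -1.08 ± 0.14 (adjusted p = 7.79e-06). Birc5 gave -0.9996 ± 0.063 (adjusted p = 1.16e-09), Kif22 -0.94 ± 0.059 (adjusted p = 1.16e-09), Bub1b -0.94 ± 0.063 (adjusted p = 2.15e-09) and Plk1 -0.92 ± 0.062 (adjusted p = 2.20e-09). Pttg1 alone did not pass, at -0.24 ± 0.12 (adjusted p = 0.156). In 42 of 44 the groups did not overlap, with Atf4 KO lower, as in 18.3% of all genes.

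By role, Ccna2 gave -0.94 ± 0.075 (adjusted p = 1.87e-08), Incenp -0.77 ± 0.058 (adjusted p = 1.04e-08), Nuf2 -0.90 ± 0.077 (adjusted p = 5.00e-08) and Spc24 -0.88 ± 0.11 (adjusted p = 4.93e-06) in Atf4 KO over Rosa26 cells with the drug. Cenpf gave -0.70 ± 0.064 (adjusted p = 9.97e-08) and Cenpe -0.64 ± 0.066 (adjusted p = 4.78e-07), while Cenpa gave -0.21 ± 0.064 (adjusted p = 0.0209), the smallest difference of the 44. Bub1 gave -0.90 ± 0.085 (adjusted p = 1.51e-07), Kif20a -0.91 ± 0.070 (adjusted p = 1.23e-08) and Prc1 -0.79 ± 0.060 (adjusted p = 1.04e-08). Ect2 gave -0.55 ± 0.064 (adjusted p = 2.18e-06), Racgap1 -0.49 ± 0.069 (adjusted p = 1.94e-05), Espl1 -0.88 ± 0.067 (adjusted p = 1.13e-08) and Cdc20 -0.75 ± 0.077 (adjusted p = 5.15e-07). Top2a gave -0.68 ± 0.060 (adjusted p = 6.40e-08) and Mki67 -0.58 ± 0.071 (adjusted p = 3.84e-06). Without the 3 libraries low in Malat1 the count was again 43. The CD4 T cell markers summed to 619.8 to 655 CPM in Atf4 KO, 659 to 708 CPM in Cebpg KO and 800.03 to 846 CPM in Rosa26 libraries with the drug, and their part was not tested.

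In Cebpg KO cells with halofuginone 40 of 44 fell relative to Rosa26, where 13.1% of all genes fell, with a median of -0.50 beside -0.02 over all genes. Birc5 had the lowest value, with 48.1, 46.3 and 48.7 CPM in Cebpg KO and 70.8, 85.4 and 77.4 CPM in Rosa26 libraries, a change of -0.71 ± 0.063 (adjusted p = 2.46e-07). Kif20a gave -0.69 ± 0.070 (adjusted p = 1.15e-06), Spc24 -0.67 ± 0.11 (adjusted p = 0.000204), Bub1 -0.64 ± 0.084 (adjusted p = 2.23e-05) and Tpx2 -0.62 ± 0.062 (adjusted p = 1.13e-06). Ccna2, Bub1b and Plk1 gave -0.61 ± 0.074 (adjusted p = 1.09e-05), -0.60 ± 0.062 (adjusted p = 1.71e-06) and -0.51 ± 0.061 (adjusted p = 7.97e-06). Incenp gave -0.49 ± 0.058 (adjusted p = 7.88e-06), Nuf2 -0.52 ± 0.076 (adjusted p = 7.45e-05), Espl1 -0.51 ± 0.066 (adjusted p = 2.19e-05) and Cdc20 -0.50 ± 0.077 (adjusted p = 0.000116).

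Kif22, Cenpf and Cenpe gave -0.50 ± 0.058 (adjusted p = 6.93e-06), -0.46 ± 0.063 (adjusted p = 4.51e-05) and -0.41 ± 0.065 (adjusted p = 0.000186) in Cebpg KO over Rosa26 cells with the drug. Prc1 gave -0.41 ± 0.059 (adjusted p = 6.33e-05), Ect2 -0.43 ± 0.064 (adjusted p = 8.30e-05), Racgap1 -0.34 ± 0.069 (adjusted p = 0.00166), Top2a -0.50 ± 0.060 (adjusted p = 9.47e-06) and Mki67 -0.34 ± 0.071 (adjusted p = 0.00169). The 4 genes that did not pass were Pttg1 (0.01 ± 0.12, adjusted p = 0.953), Cenpa (-0.10 ± 0.064, adjusted p = 0.299), Troap (-0.26 ± 0.11, adjusted p = 0.111) and Anln (-0.28 ± 0.14, adjusted p = 0.189). In 42 of 44 the groups did not overlap, with Cebpg KO lower, as in 20% of all genes, and without the 3 libraries low in Malat1 the count was 41.

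Between the knockouts with the drug fewer members rose than without it, and fewer of all genes rose too. Of the 44, 13 rose in Cebpg KO relative to Atf4 KO, where 0.538% of all genes rose, with a median of 0.26 beside -0.01 over all genes. Troap held 13.4, 11.9 and 9.58 CPM in Cebpg KO and 7.74, 7.12 and 6.26 CPM in Atf4 KO libraries, which did not overlap, a change of 0.73 ± 0.12 (adjusted p = 0.00442). Kif22, Plk1 and Tpx2 gave 0.43 ± 0.061 (adjusted p = 0.00223), 0.40 ± 0.063 (adjusted p = 0.00442) and 0.40 ± 0.063 (adjusted p = 0.00442). Bub1b gave 0.34 ± 0.064 (adjusted p = 0.0135) and Espl1 0.36 ± 0.068 (adjusted p = 0.0138). Incenp gave 0.27 ± 0.059 (adjusted p = 0.0268), Birc5 0.29 ± 0.065 (adjusted p = 0.032), Ccna2 0.33 ± 0.076 (adjusted p = 0.0398) and Nuf2 0.37 ± 0.080 (adjusted p = 0.0261). The other 3, Aurkb, Kif18b and Prc1, gave 0.39, 0.37 and 0.38. In 30 of 44 the Cebpg KO libraries lay above all Atf4 KO libraries, against 5.77% of all genes.

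The count of 13 differed between fits and with single libraries left out. It was 9 with the replicate number as a block, 0 when only these 2 groups were fitted (6 libraries), and 33 without the 3 libraries low in Malat1. Without Atf4 KO replicate 1 it was 6 and without Atf4 KO replicate 3 it was 28, and without Cebpg KO replicate 1 it was 4 and without Cebpg KO replicate 3 it was 8. In every drug-treated library the order Atf4 KO, Cebpg KO, Rosa26 from low to high held for 29 of 44 genes, and for 2.42% of all genes, and for the group means in 42 of 44 members and 24.7% of all genes.

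Whether a knockout changed the response to the drug was tested as an interaction, the fold change in the knockout minus that in Rosa26 cells. Most values lay below 0, but few passed the test. For Atf4 KO, 8 of 44 fell further, where 4.01% of all genes had a lower response, and 1 fell less, where 2.41% had a higher one. The median was -0.21, beside -0.06 over all genes, and 36 of 44 values lay below 0. At an unadjusted p under 0.05, 19 members had a lower and 1 a higher response, against 11.8% of all genes lower and 8.05% higher. Cenpa was the gene that fell less: it held 59.8, 62.7 and 73.1 CPM with halofuginone, against 175, 173 and 175 CPM untreated, in Atf4 KO, and 73.9, 74.7 and 76.9 against 292, 268 and 281 CPM in Rosa26 libraries. The interaction was 0.48 ± 0.089 (adjusted p = 0.00242).

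The 8 that fell further in Atf4 KO came from 5 roles. Espl1 held 34.3, 33.6 and 33.8 CPM with halofuginone, against 149, 153 and 151 CPM untreated, in Atf4 KO, and 61.5, 60.7 and 64.4 against 209, 209 and 212 CPM in Rosa26 libraries, an interaction of -0.40 ± 0.091 (adjusted p = 0.00997). Among spindle factors Tpx2 gave -0.37 ± 0.086 (adjusted p = 0.0123), Prc1 -0.35 ± 0.082 (adjusted p = 0.0128) and Troap -0.54 ± 0.15 (adjusted p = 0.0332). Among kinesins Kif22 gave -0.35 ± 0.080 (adjusted p = 0.0123) and Kif15 -0.32 ± 0.094 (adjusted p = 0.0472). Incenp gave -0.31 ± 0.081 (adjusted p = 0.027) and Plk1 -0.30 ± 0.083 (adjusted p = 0.0353). Cenpa, Espl1, Kif22 and Tpx2 kept the call in all 20 alternatives, Prc1 in 19, Incenp in 12, Troap in 10, Plk1 in 7 and Kif15 in 5, and none of the 9 changed sign. The count of 8 was 22 without the 3 libraries low in Malat1. It was 4 without Atf4 KO untreated replicate 3 or Rosa26 untreated replicate 1, and 5 without any 1 of 6 further libraries (Atf4 KO untreated replicates 1 and 2, Rosa26 untreated replicates 2 and 3, Atf4 KO halofuginone replicate 1, Rosa26 halofuginone replicate 3).

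For Cebpg KO, 3 of 44 fell further than in Rosa26, against 2.1% of all genes, and 0 fell less by edgeR, against 0.374% of all genes, while DESeq2 called 1, Cenpa. At an unadjusted p under 0.05, 20 members had a lower and 1 a higher response, against 9.79% of all genes lower and 3.82% higher. The median was again -0.21, beside -0.06 over all genes, with 41 of 44 values below 0. Incenp held 98.4, 87.5 and 97.6 CPM with halofuginone, against 299, 325 and 304 CPM untreated, in Cebpg KO, and 129, 133 and 137 against 333, 328 and 349.6 CPM in Rosa26 libraries. Its interaction was -0.37 ± 0.081 (adjusted p = 0.0156), that of Espl1 -0.37 ± 0.090 (adjusted p = 0.0346) and that of Kif15 -0.36 ± 0.093 (adjusted p = 0.045). Incenp kept the call in 15 of 20 alternatives, Espl1 in 6 and Kif15 in 3. Cenpa gave 0.33 ± 0.088 (adjusted p = 0.0517). The count of 3 was 12 without the 3 libraries low in Malat1. It was 0 without Cebpg KO replicate 2 of either condition, and 1 without Cebpg KO untreated replicate 3, any untreated Rosa26 library, or Rosa26 halofuginone replicate 2 or 3. Both interactions share the Rosa26 libraries. The responses of Cebpg KO and Atf4 KO were not told apart for any member (0 of 44 in either direction by edgeR and by DESeq2, against 0.00681% of all genes in each direction by edgeR). At an unadjusted p under 0.05, 2 members had a lower and 1 a higher response in Cebpg KO than in Atf4 KO, against 4.04% of all genes lower and 2.7% higher. Troap, at 0.44 ± 0.15 (adjusted p = 0.536), was the furthest from 0.

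**Figure D5:**
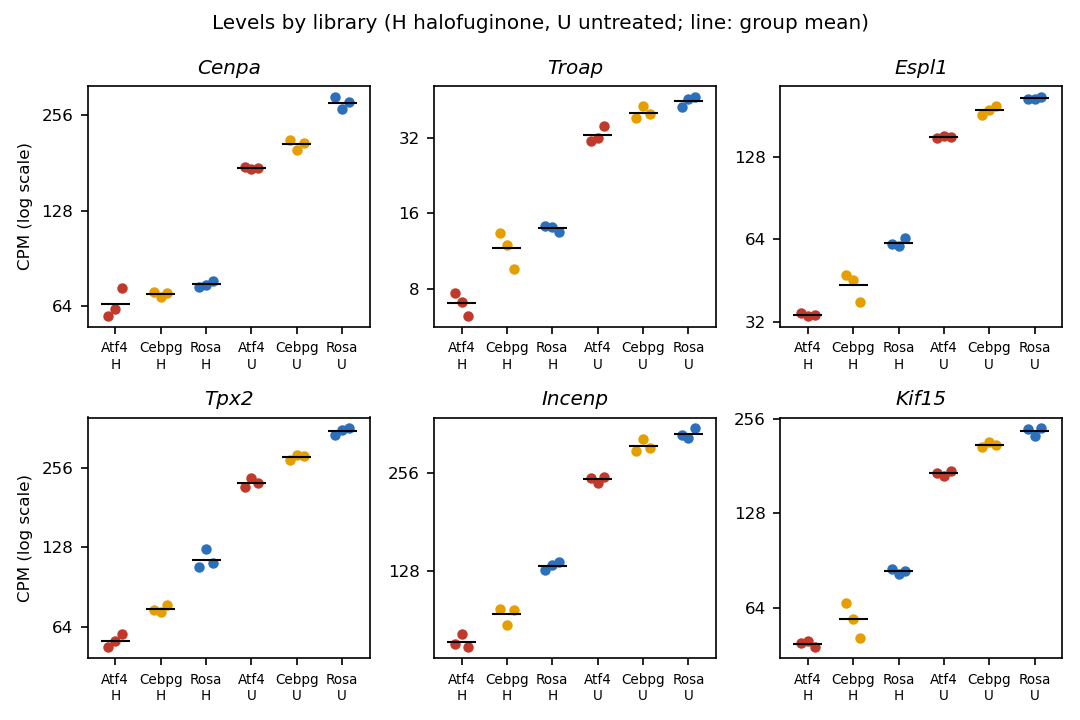
CPM on a log scale of 6 genes in each library (points) with the group mean (line), for halofuginone (H) and untreated (U) Atf4 KO, Cebpg KO and Rosa26 cells. In Cenpa the 3 drug-treated groups lie closer together than the 3 untreated groups, and in the other 5 genes they lie further apart.

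The other genes of mitosis, 131 in 7 lists and all measured, included genes that did not fall. With halofuginone 109 fell and 6 rose in Atf4 KO, 116 fell and 3 rose in Cebpg KO, and 118 fell and 2 rose in Rosa26 cells, where 26.5% of all genes fell in Atf4 KO, 28% in Cebpg KO and 24.1% in Rosa26. Of all genes, 23.1% rose in Atf4 KO, 23.1% in Cebpg KO and 23.6% in Rosa26. The medians of the 131 were -1.04 in Atf4 KO, -1.08 in Cebpg KO and -0.83 in Rosa26 cells. Of the 26 genes of the inner kinetochore, the outer kinetochore (KMN network) and CENP-A loading 24 fell in Rosa26 cells. Knl1, a scaffold for the checkpoint in the outer kinetochore, gave -1.49 ± 0.096 (adjusted p = 2.01e-10) and Itgb3bp (CENP-R) 0.30 ± 0.14 (adjusted p = 0.0808). Of 11 further checkpoint and Ska genes 10 fell, with Spdl1, which recruits dynein, at -1.25 ± 0.086 (adjusted p = 3.21e-10) and Ska3, of a microtubule coupler, at -1.16 ± 0.10 (adjusted p = 1.38e-08), and Mad2l1bp, which takes MAD2 off its partner, at 0.04 ± 0.13 (adjusted p = 0.84). Condensin and cohesin genes fell in 17 of 19, with Sgo2a at -1.56 ± 0.093 (adjusted p = 4.20e-11) and the condensin subunit Ncapg at -1.44 ± 0.074 (adjusted p = 5.12e-12), and the cohesin subunit Stag2 at 0.03 ± 0.072 (adjusted p = 0.804).

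The anaphase-promoting complex and its partners (17 genes) had the median nearest to 0 of these 7 lists in Rosa26 cells, -0.34, with 13 fallen and 1 risen. Fbxo5, an inhibitor of the complex, gave -1.27 ± 0.067 (adjusted p = 6.78e-12), Ube2s, its chain-extending enzyme, -1.06 ± 0.094 (adjusted p = 1.98e-08), and Anapc16, a subunit, rose by 0.47 ± 0.082 (adjusted p = 8.55e-05). Other spindle and centrosome genes fell in 31 of 32, with the kinesin Kif14 at -1.93 ± 0.085 (adjusted p = 5.06e-13), the centrosome kinase Nek2 at -1.92 ± 0.071 (adjusted p = 7.43e-14), and Numa1, which anchors microtubules at the poles, at -0.08 ± 0.055 (adjusted p = 0.23). Of 8 further genes listed for cytokinesis 6 fell and 1 rose. The lowest was Pif1, at -1.91 ± 0.094 (adjusted p = 2.38e-12), which stands in the list but encodes a DNA helicase and not a cytokinesis factor. The abscission factor Cep55 gave -1.71 ± 0.076 (adjusted p = 6.29e-13), and Spast, which severs microtubules, 0.21 ± 0.076 (adjusted p = 0.0314). Of 18 genes of CDK1 control 17 fell, with the phosphatase Cdc25b at -1.84 ± 0.073 (adjusted p = 1.38e-13), Cdca3 at -1.83 ± 0.084 (adjusted p = 1.04e-12) and Ensa, which blocks the phosphatase PP2A-B55, at 0.15 ± 0.11 (adjusted p = 0.301). In untreated cells 93 of the 131 fell and 0 rose in Atf4 KO relative to Rosa26, and 22 fell and 0 rose in Cebpg KO, where 14.3% of all genes fell in Atf4 KO and 2.29% in Cebpg KO. Of all genes, 11.7% rose in untreated Atf4 KO and 2.71% in untreated Cebpg KO. With the drug 95 of the 131 fell and 4 rose in Atf4 KO, and 80 fell and 1 rose in Cebpg KO, where 16.3% of all genes fell in Atf4 KO and 13.1% in Cebpg KO. Of all genes, 11.8% rose in drug-treated Atf4 KO and 5.74% in drug-treated Cebpg KO.

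The 14 regulators of cell cycle transcription moved in both directions with the drug. In each genotype 8 fell, where 26.5% of all genes fell in Atf4 KO, 28% in Cebpg KO and 24.1% in Rosa26. In each 3 rose, where 23.1% of all genes rose in Atf4 KO, 23.1% in Cebpg KO and 23.6% in Rosa26. The number that rose thus does not set the regulators apart from all genes. Foxm1, an activator of G2 and mitosis genes, stood at 38.1 ± 0.696 CPM with halofuginone, against 109 ± 3.35 CPM untreated, in Atf4 KO, at 42.6 ± 3.23 against 129.5 ± 1.87 CPM in Cebpg KO and at 59.04 ± 4.52 against 148 ± 7.01 CPM in Rosa26 cells (SD, n = 3). Its fold changes were -1.51 ± 0.066 (adjusted p = 3.69e-13) in Atf4 KO, -1.60 ± 0.066 (adjusted p = 1.34e-13) in Cebpg KO and -1.33 ± 0.064 (adjusted p = 1.88e-12) in Rosa26. Mybl2, the other activator of this pair, gave -1.45 ± 0.067 (adjusted p = 7.28e-13) in Atf4 KO, -1.78 ± 0.066 (adjusted p = 4.52e-14) in Cebpg KO and -1.25 ± 0.064 (adjusted p = 4.32e-12) in Rosa26. Fallen in each genotype were also Tfdp1, a partner of E2F proteins (-0.88 in Atf4 KO, -1.001 in Cebpg KO and -0.79 in Rosa26), E2f4, a repressive E2F (-0.43 in Atf4 KO, -0.46 in Cebpg KO and -0.42 in Rosa26), Rbl1, the pocket protein p107 (-0.66 in Atf4 KO, -0.77 in Cebpg KO and -0.44 in Rosa26), and Trp53 (-0.67 in Atf4 KO, -0.70 in Cebpg KO and -0.45 in Rosa26). The MuvB genes Lin54 (-0.62 in Atf4 KO, -0.80 in Cebpg KO and -0.64 in Rosa26) and Lin9 (-0.49 in Atf4 KO, -0.68 in Cebpg KO and -0.42 in Rosa26) fell as well. Lin37 (0.05 in Atf4 KO, 0.24 in Cebpg KO and 0.24 in Rosa26), Lin52 (-0.01 in Atf4 KO, -0.16 in Cebpg KO and -0.05 in Rosa26) and Rb1 (0.06 in Atf4 KO, 0.04 in Cebpg KO and -0.03 in Rosa26) did not pass the threshold.

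The 3 regulators that rose with the drug in each genotype were Rbl2, the pocket protein p130 (0.32 in Atf4 KO, 0.21 in Cebpg KO and 0.35 in Rosa26), Tfdp2 (0.50 in Atf4 KO, 0.36 in Cebpg KO and 0.53 in Rosa26) and Cdkn1a, which encodes the CDK inhibitor p21. Cdkn1a stood at 56.8 ± 5.49 CPM with halofuginone, against 48.5 ± 0.833 CPM untreated, in Atf4 KO, at 49.8 ± 4.32 against 38.2 ± 1.27 CPM in Cebpg KO and at 58.2 ± 6.72 against 32.4 ± 1.15 CPM in Rosa26 cells. It rose by 0.23 ± 0.085 (adjusted p = 0.0304) in Atf4 KO, 0.38 ± 0.087 (adjusted p = 0.00095) in Cebpg KO and 0.84 ± 0.087 (adjusted p = 1.11e-07) in Rosa26, and the interaction for Atf4 KO was -0.61 ± 0.12 (adjusted p = 0.00402). In the interaction for Atf4 KO 1 of the 14 regulators had a lower response, where 4.01% of all genes did. For Cebpg KO 2 of the 14 did, where 2.1% of all genes did. The lowest values there were those of Mybl2, at -0.53, and next Cdkn1a. In untreated cells Cdkn1a was higher in Atf4 KO than in Rosa26, at 0.58 ± 0.087 (adjusted p = 7.45e-05), and Rbl2 too, at 0.33 ± 0.063 (adjusted p = 0.000682), while Foxm1, at -0.45 ± 0.062 (adjusted p = 3.66e-05), and Mybl2, at -0.58 ± 0.062 (adjusted p = 2.30e-06), were lower. With the drug Foxm1 gave -0.63 ± 0.067 (adjusted p = 6.53e-07) and Mybl2 -0.79 ± 0.067 (adjusted p = 4.46e-08) in Atf4 KO over Rosa26, and -0.47 ± 0.066 (adjusted p = 5.67e-05) and -0.65 ± 0.067 (adjusted p = 1.59e-06) in Cebpg KO over Rosa26. Untreated, the Cebpg KO values over Rosa26 were -0.19 ± 0.062 (adjusted p = 0.0735) for Foxm1 and -0.12 ± 0.061 (adjusted p = 0.238) for Mybl2.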

How the data were processed

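Messenger RNA was captured on magnetic oligo beads and made into directional dUTP libraries, per the labels' protocols. The deposited values are raw read counts per gene made by the authors, per the file headers. FastQC, MultiQC, Trimmomatic, STAR, HTSeq, edgeR and the build GRCm39 are named in the submitters' processing notes, with no versions, settings or strand use. Of the 14695 names, 449 were blank, and 431 of these were filled from GENCODE M21 (GRCm38), whose exon lengths gave the TPM values.

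All 18 libraries entered 1 fit with a term per group (edgeR 4.0.16 in R 4.3.3, TMM factors, robust quasi-likelihood F tests, Benjamini-Hochberg adjustment over 14695 genes, threshold 0.05), which was tested on simulated data. The simulation gave each gene the same spread in every group, so it did not cover spreads that differ between groups. The 12 comparisons were 3 of the drug, 6 between genotypes and 3 interactions. Alternatives were RLE and upper-quartile scaling, a minimum of 5 CPM in 3 libraries, filterByExpr, a replicate block, DESeq2 1.42.0, fits of only the groups compared, and fits without single libraries or without the 3 libraries low in Malat1. The members and lists were chosen with earlier results of these data known. All members may be named; each other list gives its 2 lowest and 1 highest drug fold changes in Rosa26, the regulators are given in full, and where over 12 members pass, the 2 of each role with the smallest p are given in full; 1 gene that this rule names is not reported here.

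In 1 comparison, the knockouts with halofuginone, all 3 same-numbered pairs deviated together (r over 0.1). There Atf4 KO replicate 2 was still nearer to Cebpg KO replicate 1 (r = 0.365) than to replicate 2 (r = 0.246). Over all 45 same-numbered pairs the median r was -0.00525 and 9 passed 0.1, as did 23 of 90 different-numbered pairs. The numbers are thus not shown to pair the samples. Without the strand setting, members that an annotated gene overlaps on the opposite strand are uncertain: Ccna2, Cdc20, Cdca8, Kif20a, Kif4, Nusap1, Prc1 and Ube2c (a protein-coding gene), and Cenpf, Ect2, Espl1, Kif11, Kif18b, Kif22, Mki67, Plk1, Top2a and Troap (a pseudogene or noncoding transcript). Ccnb1, Ccnb2, Kif22 and Kif4, which have annotated pseudogenes, are uncertain too.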

Additional observations from a re-analysis of the deposited data

Results flagged for a closer look

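The results below were picked out because the response to halofuginone differed between a knockout and Rosa26 cells by the interaction test, with an adjusted p under 0.05 in edgeR's quasi-likelihood test. For Atf4 KO the log2 differences in response were 0.48 for Cenpa, -0.54 for Troap, -0.40 for Espl1, -0.37 for Tpx2, -0.35 for Prc1, -0.35 for Kif22, -0.32 for Kif15, -0.31 for Incenp and -0.30 for Plk1. For Cebpg KO they were -0.37 for Incenp, -0.37 for Espl1 and -0.36 for Kif15. A negative value means a deeper fall in the knockout, and Cenpa alone of these genes fell less. These calls were not equally firm over the 20 alternatives. For Atf4 KO the call was lost in 15 for Kif15, 13 for Plk1, 10 for Troap, 8 for Incenp and 1 for Prc1. Cenpa, Espl1, Kif22 and Tpx2 kept it in all 20. For Cebpg KO it was lost in 17 for Kif15, 14 for Espl1 and 5 for Incenp.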

How the results depend on the processing

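The 44 genes fell with halofuginone in each genotype under every alternative run. Of 8184 values of single members under the alternatives, 0 reversed, 309 lost the threshold and 229 gained it. Counts within the untreated and drug-treated Atf4 KO and the drug-treated Cebpg KO comparisons with Rosa26 stayed at 43 to 44, 41 to 43 and 37 to 41. The 13 members higher in Cebpg KO than in Atf4 KO with halofuginone were 22 with upper-quartile scaling, 25 with a minimum of 5 CPM, 28 by DESeq2, 0 when only the 2 groups were fitted, 33 without the 3 libraries low in Malat1, and 4 to 28 with 1 library left out. Over all genes DESeq2 made 501 calls there, 41.9% of them higher, where edgeR called 68 genes lower and 79 higher. The 8 with a deeper fall in Atf4 KO than in Rosa26 were 4 with RLE factors, 14 with a minimum of 5 CPM, 22 without those 3 libraries, and 4 to 8 with 1 library left out. The 3 with a deeper fall in Cebpg KO were 0 with RLE factors, 1 with upper-quartile scaling, with the replicate block or with only the groups compared, 12 without those 3 libraries, and 0 to 3 with 1 left out. The 0 that fell less in Cebpg KO were 1 with RLE factors, upper-quartile scaling, a minimum of 5 CPM, DESeq2, only the groups compared, or without those 3 libraries, and 0 to 1 with 1 left out. With 1 library left out, the 27 lower in untreated Cebpg KO than in Rosa26 were 17 to 19, and the 29 higher in untreated Cebpg KO than in Atf4 KO were 12 to 18. The 27 were 37 by DESeq2, 40 with only the groups compared and 40 without the 3 libraries low in Malat1, and the 29 were 36, 42 and 43 under the same alternatives. Calls over all genes grew by DESeq2 too. In untreated Cebpg KO over Rosa26 it made 2020, 24.8% of them higher, where edgeR called 337 genes lower and 398 higher. In untreated Cebpg KO over Atf4 KO it made 915, 62.1% of them higher, where edgeR called 193 lower and 295 higher. The 3 libraries low in Malat1 are all drug-treated, so they enter these untreated comparisons only through the spread and scaling shared in the fit. The part of each in these shifts, and the cause of the other shifts, was not tested. Shares of all genes called are not given for the fits that leave out libraries or use only the groups compared. Shifts in those fits are thus not set against all genes. As a replicate block the sample numbers gave 43 for the 44 fallen in untreated Atf4 KO, 23 for the 27, 25 for the 29, 9 for the 13, 6 for the 8 and 1 for the 3, and left the other counts as they were; apart from the knockouts with halofuginone, same-numbered samples did not deviate together in all 3 pairs.

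Scaling moved the balance of all called genes. The share of higher calls was 54.1% in untreated Cebpg KO over Rosa26, and 26.2% with RLE factors and 24.8% by DESeq2. With upper-quartile scaling it was 57.6% in place of 44.9% in untreated Atf4 KO over Rosa26, 52.2% in place of 41.9% with the drug, and 50.7% in place of 30.4% in drug-treated Cebpg KO over Rosa26. In the interaction it was 37.5% for Atf4 KO (59.0% with RLE factors, 59.4% by DESeq2) and 15.2% for Cebpg KO (40.7% with RLE factors, 33.1% with upper-quartile scaling, 45.5% by DESeq2). Between the knockouts with the drug it was 53.7%, and 41.9% by DESeq2; in the interaction between the knockouts 1 call of 2 was higher, against 81.8% with upper-quartile scaling and 34.0% by DESeq2. Upper-quartile scaling also raised the median of all genes by 0.108 in drug-treated over untreated Cebpg KO cells. Pttg1 had the fewest counts of the 44 members.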
